A study of Homo sapiens with 2 samples.

Results

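The genes described here are the 4 fibroblast growth factor (FGF) receptor kinases FGFR1, FGFR2, FGFR3 and FGFR4, the related receptor FGFRL1, the co-receptor KLB and the hormone FGF19. They were taken by symbol, and all 7 were found among the 23709 gene symbols of the table. Poly(A) RNA of Caco-2 cells, with no treatment named, was sequenced in 2 libraries; the line derives from a human colorectal adenocarcinoma. One came from RNA bound to ribosomes with their nascent chains (RNC-mRNA library, 11083302 reads), as a sample of mRNAs under translation, and the other from total RNA (the mRNA library, 9640364 reads). Cells of both came from ATCC and were grown in DMEM with fetal bovine serum, penicillin, streptomycin and ciprofloxacin. Confluence, time after plating and whether both preparations shared a culture are not stated in the labels. The question of the design is which mRNAs are more or less frequent on ribosomes than in the whole mRNA pool. Each level has 1 library, so no difference below has a replicate check and no p-value is given. Levels are RPKM (reads scaled to transcript length and to library total), and intervals are 95% intervals that cover counting error only. Read counts per gene were recovered as the fewest that explain the RPKM values, so the true counts could be higher and the intervals narrower.

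FGFs are secreted ligands that bind receptor tyrosine kinases on the cell surface, with heparan sulfate chains as helpers, and the activated receptors signal mainly through the adaptor FRS2 to RAS and MAP kinase and through PLCG1. FGF19 differs from most FGFs in that it circulates as a hormone. It is made by enterocytes of the ileum when bile acids activate the nuclear receptor FXR (gene NR1H4), and in the liver it acts on FGFR4 together with beta-Klotho (gene KLB) to repress bile acid synthesis. FGFRL1 binds FGFs but lacks the tyrosine kinase domain of the other receptors.

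The start of the coding sequence is shown for 6 of the 7 genes, because the letters around a start codon are a known determinant of how well a ribosome initiates there. The letters were read from the GENCODE release 29 transcripts matched to the table's RefSeq records. Capitals mark the start codon ATG, the base 3 positions before it and the base just after it.
FGFR2: accgtaAccATGGtcagctgg
FGFR3: gcccccGccATGGgcgcccct
FGFR4: gagaagGagATGCggctgctg
FGFRL1: caggccGagATGAcgccgagc
FGF19: ggaggtGccATGCggagcggg
KLB: tggtggCaaATGAagccaggc

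The kinase receptors, FGFRL1 and FGF19 carried A or G at the capital before the start codon, as did 85.3% of 11557 expressed genes (mean of at least 1 RPKM over both libraries) with a matched coding transcript, and KLB did not. FGFR2, FGFR3 and FGFR1 (not shown) also had G just after the start codon, a combination held by 45.3% of those genes. The 5′ leaders differed widely in these transcripts. The longest were those of FGFR1 (821 nt), FGF19 (766 nt) and FGFR2 (592 nt), against a median of 201 nt over the expressed genes. FGFR2 had 6 ATGs upstream of its start codon, FGFR1 had 4, FGF19 had 3, FGFRL1 had 2 and FGFR3 had 1, whereas FGFR4 and KLB had 0. At least 1 upstream ATG was present in 53.2% of expressed genes. The leaders of FGFRL1 (87.9% G or C) and FGFR3 (84.8%) were among the richest in G and C, and that of KLB (42.3%) among the poorest, against a median of 66.3%. GENCODE and the table's records differ in length for most of these genes, so the leaders may differ from those behind the RPKM values.

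The cells had the epithelial profile of the line. Of 8 epithelial and enterocyte markers, 7 averaged at least 1 RPKM over both libraries. EPCAM, an epithelial adhesion protein, had 273 RPKM in the RNC-mRNA library and 244 RPKM in the mRNA library. CDX2, an intestinal transcription factor, had 87.8 RPKM in RNC-mRNA and 79.8 RPKM in mRNA, and VIL1, a microvillus protein, had 116 RPKM in RNC-mRNA and 109 RPKM in mRNA. KRT20, a keratin of differentiated intestinal epithelium, was near 0, with 0.0500 RPKM in the RNC-mRNA library and 0.977 RPKM in the mRNA library. Among leukocyte markers, PTPRC had 0.0332 RPKM in RNC-mRNA and 0.363 RPKM in mRNA, CD3E was also under 1 RPKM in both libraries, and the lysosomal CD68 had 12.5 RPKM in RNC-mRNA and 12.97 RPKM in mRNA. Of 3 endothelial markers, PECAM1 had 1.58 RPKM in RNC-mRNA and 4.12 RPKM in mRNA, and CDH5 and VWF were under 1 RPKM in both. Among 4 fibroblast markers, 3 averaged at least 1 RPKM over both libraries. The collagen COL1A1 was present at 26.1 RPKM in the RNC-mRNA library and 46.8 RPKM in the mRNA library. The collagen COL1A2 had 7.09 RPKM in RNC-mRNA and 15.0 RPKM in mRNA. PDGFRB had 2.37 RPKM in RNC-mRNA and 2.02 RPKM in mRNA, and THY1 was under 1 RPKM in both. The part of these other markers in the values below was not tested.

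All 4 receptor kinases were expressed, and FGFR2 and FGFR4 made up most of their mRNA. FGFR2, a receptor of epithelial cells for FGFs such as FGF7 and FGF10, had 63.4 RPKM in the RNC-mRNA library (interval 61.2 to 65.6) and 42.1 RPKM in the mRNA library (40.2 to 44.0). FGFR4, the main FGF19 receptor of hepatocytes, had 53.2 RPKM in the RNC-mRNA library (50.8 to 55.8) and 58.8 RPKM in the mRNA library (56.1 to 61.7). FGFR2 was thus the highest of the 7 genes among ribosome-bound mRNAs, and FGFR4 the highest in total mRNA. FGFR3, a receptor best known as a brake on bone growth, had 18.2 RPKM in the RNC-mRNA library (17.0 to 19.5) and 26.0 RPKM in the mRNA library (24.4 to 27.6). FGFR1, the receptor that prevails in mesenchymal tissue, had 9.61 RPKM in the RNC-mRNA library (8.88 to 10.4) and 12.98 RPKM in the mRNA library (12.1 to 13.9). It was the lowest of the 4 kinases in both libraries.

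FGFRL1 came after FGFR2 and FGFR4 in both libraries, and KLB and FGF19 were scarce. FGFRL1 had 43.3 RPKM in the RNC-mRNA library (41.1 to 45.5) and 39.5 RPKM in the mRNA library (37.3 to 41.7). KLB had 1.26 RPKM in the RNC-mRNA library (1.01 to 1.56) and 1.74 RPKM in the mRNA library (1.42 to 2.11). FGF19 had 0.464 RPKM in the RNC-mRNA library (0.232 to 0.831) and 0.777 RPKM in the mRNA library (0.444 to 1.26). FGF19 rested on 11 reads in the RNC-mRNA library and 16 in the mRNA library, and it was the only one of the 7 whose mean was under 1 RPKM. A count of 0 would have allowed up to 0.127 RPKM of it in RNC-mRNA and 0.146 RPKM in mRNA, taking 3 reads as the limit. FGFR4 exceeded its co-receptor KLB 42.2-fold in the RNC-mRNA library and 33.8-fold in the mRNA library, per length.

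**Figure D1:**
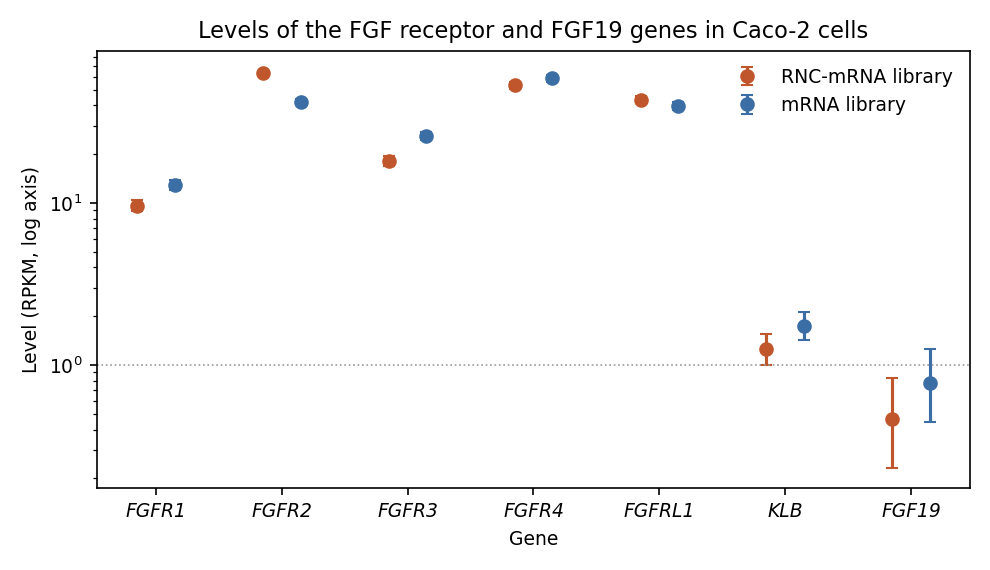
Level of each gene in RPKM on a log axis, with the RNC-mRNA library (orange) left of the mRNA library (blue). Points are the single library's value and bars the 95% counting interval. FGFR2 is the highest point in the RNC-mRNA library at 63.4 RPKM and FGFR4 in the mRNA library at 58.8 RPKM, and FGF19 lies below the dotted line at 1 RPKM in both.

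In the RNC-mRNA library the order of the levels was FGFR2, FGFR4, FGFRL1, FGFR3, FGFR1, KLB and FGF19, and no neighbours in it had overlapping counting intervals. In the mRNA library FGFR4 came first and FGFR2 second, and the rest kept that order. FGFR2 and FGFRL1 were not separated there, as their intervals overlapped. Among the 4 kinases, FGFR2 held 43.9% of the summed RPKM in the RNC-mRNA library and 30.1% in the mRNA library. FGFR4 held 36.9% in RNC-mRNA and 42.1% in mRNA, FGFR3 held 12.6% in RNC-mRNA and 18.6% in mRNA, and FGFR1 held 6.65% in RNC-mRNA and 9.28% in mRNA. The sum of the 4 was similar, at 144 RPKM in the RNC-mRNA library and 140 RPKM in the mRNA library. The order in total mRNA depends on the transcript length assumed. With the GENCODE transcript lengths, FGFR2 led in both libraries, at 53.3% in the RNC-mRNA library and 38.4% in the mRNA library, and FGFR4 held 29.01% in RNC-mRNA and 34.8% in mRNA. The GENCODE transcript of FGFR2 has no 3′ untranslated part, which makes this alternative the less complete one.

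**Figure D2:**
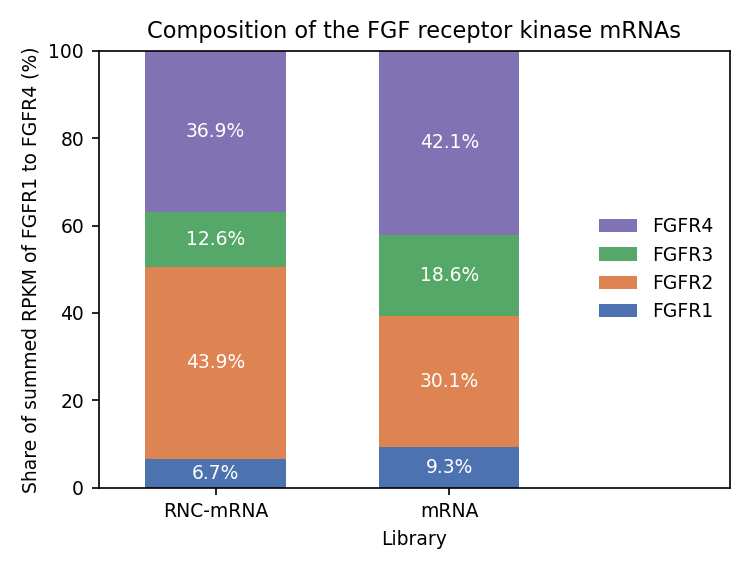
Share of the summed RPKM of FGFR1 to FGFR4 taken by each receptor, as a percentage, in the RNC-mRNA library (left bar) and the mRNA library (right bar). FGFR2 takes 43.9% of the left bar and 30.1% of the right one.

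Translation ratio here means the RNC-mRNA level divided by the mRNA level. It is given here on the log2 scale, after adding 0.1 RPKM to both, relative to the median of the 13402 genes with a mean of at least 1 RPKM. FGFR2 had the highest ratio of the 7 genes, at 0.63 (interval 0.55 to 0.71), which is 1.54-fold above the median gene. It rested on 3260 reads in the RNC-mRNA library and 1884 in the mRNA library, and 93.9% of expressed genes had a lower ratio. FGFRL1 lay slightly above the median at 0.17 (0.06 to 0.28), on 1542 RNC-mRNA and 1223 mRNA reads. FGFR4 lay close to it at -0.11 (-0.20 to -0.01), on 1811 RNC-mRNA and 1741 mRNA reads. With no filter on low values the ratio of FGFR4 was -0.0045, so its distance from the median depends on which genes set the centre.

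FGFR1 and FGFR3 were relatively scarcer in the RNC-mRNA library. FGFR3 had a ratio of -0.47 (-0.60 to -0.34), on 866 reads in the RNC-mRNA library and 1074 in the mRNA library, and 23.1% of expressed genes lay lower. FGFR1 had a ratio of -0.39 (-0.55 to -0.24), on 635 RNC-mRNA and 746 mRNA reads. KLB was at -0.40, with an interval that just reached the median (-0.86 to 0.0035), on 85 RNC-mRNA and 102 mRNA reads. For FGF19 the ratio of -0.60 had an interval of -1.96 to 0.49, so that no difference from the median gene was detectable at this depth.

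None of the 6 genes with a mean of at least 1 RPKM was 2-fold or more from the median, a distance reached by 13.1% of expressed genes. The counting intervals of 5 of the 7 did not include the median, lying above it for FGFR2 and FGFRL1 and below it for FGFR1, FGFR3 and FGFR4. This is common at such depth: such an interval was found for 59.5% of all expressed genes and for 69.9% of those with 500 to 6000 reads in all. It does not set these 5 genes apart from the rest.

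**Figure D3:**
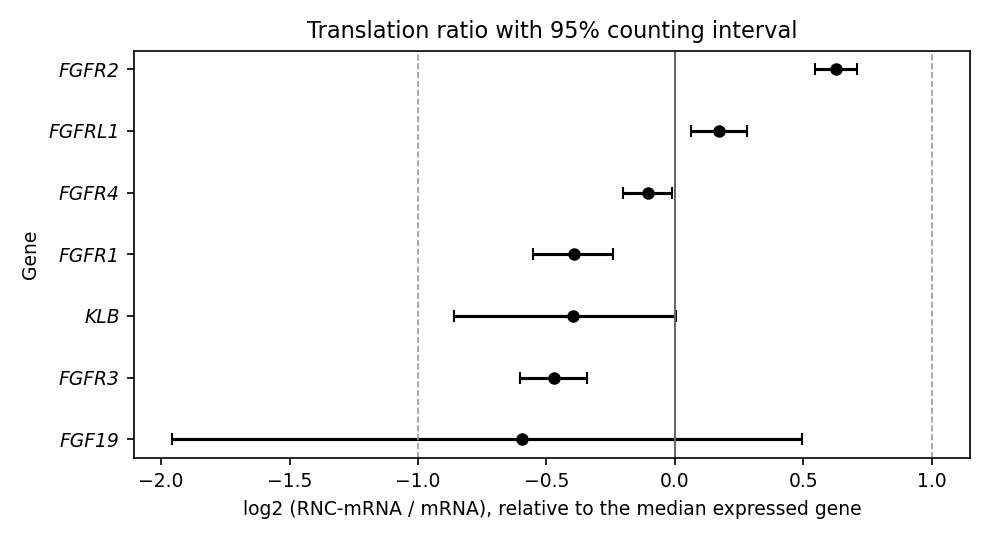
Translation ratio of each gene on the log2 scale relative to the median expressed gene (solid line at 0), with 95% counting intervals. The dashed lines mark 2-fold. FGFR2 (0.63) stands highest, FGFR1 and FGFR3 lie below the median, and the interval of FGF19 spans from -1.96 to 0.49.

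Ratios of pairs of receptors do not depend on the centre chosen. FGFR2 over FGFR3 was 3.48 in the RNC-mRNA library and 1.62 in the mRNA library, a 2.15-fold change of the pair (interval 1.93 to 2.39). FGFR2 over FGFR1 was 6.59 in RNC-mRNA and 3.24 in mRNA, 2.03-fold (1.80 to 2.30), and FGFR2 over FGFR4 was 1.19 in RNC-mRNA and 0.715 in mRNA, 1.66-fold (1.52 to 1.82). FGFR1 and FGFR3 kept nearly the same proportion, at 0.528 in RNC-mRNA and 0.5001 in mRNA, and the interval of the change included 1 (0.917 to 1.22). Of the 15 pairs among the 6 genes with a mean of at least 1 RPKM, 11 had an interval without 1. The other 4 were FGFR1 with FGFR3 and the pairs of KLB with FGFR1, FGFR3 and FGFR4. The share of such pairs among all expressed genes was not computed, so the count of 11 does not set these genes apart. The receptor kinases resemble each other in sequence and how reads matching more than 1 gene were assigned is not stated in the labels, so their shares carry that uncertainty too. Each gene is represented by 1 RefSeq record, whereas RefSeq lists 17 mRNA records for FGFR2 and 14 for FGFR1, and splice forms were not separated. Exons of FGFR1 overlap those of LETM2 on the opposite strand by 138 bases (GENCODE on GRCh38), and a strand-preserving step is not named in the labels.

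Against 28 other expressed receptor tyrosine kinases, FGFR2 and FGFR4 were among the most abundant. In the RNC-mRNA library FGFR2 ranked 3 and FGFR4 ranked 4 of 32, after PTK7 (79.0 RPKM), a receptor of planar cell polarity, and the collagen receptor DDR1 (77.4 RPKM). FGFR4 was not separated there from EPHB4 (52.5 RPKM), which lay within its counting interval (50.8 to 55.8). All these ranks rest on the transcript lengths behind the deposited RPKM. In the mRNA library FGFR4 ranked 3 and FGFR2 ranked 7, with PTK7 at 87.5 RPKM and DDR1 at 78.5 RPKM. By ratio FGFR2 ranked 5, FGFR4 ranked 20, FGFR1 ranked 26 and FGFR3 ranked 27. The 28 others had a median ratio of -0.01, close to that of all expressed genes (0) and 0.07 with no filter on low values, and ran from FLT1 (-2.003), a VEGF receptor, to PDGFRA (1.37), a platelet-derived growth factor receptor. A distance of 2-fold or more was reached by 2 of the 28 on the high side and by 3 on the low side, where 1.37% and 11.8% of all expressed genes reached it. On the low side, FLT1 and EPHA10 were under 1 RPKM in the RNC-mRNA library and passed the filter through the mRNA library, so that count is partly set by the filter.

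The receptor kinases closest in level over both libraries were named by their distance in log2 RPKM over these 2 values. EPHB4, an ephrin receptor with 52.5 RPKM in the RNC-mRNA library and 47.8 RPKM in the mRNA library, was nearest to both FGFR4 (distance 0.30) and FGFR2 (0.33). ERBB2, with 45.7 RPKM in RNC-mRNA and 48.5 RPKM in mRNA, was second nearest to FGFR4, FGFR2 and FGFRL1, and ERBB3 (37.9 RPKM in RNC-mRNA and 45.2 RPKM in mRNA) was nearest to FGFRL1 (0.27). EPHB3 (10.5 RPKM in RNC-mRNA and 11.6 RPKM in mRNA) was nearest to FGFR1 (0.21), followed by ROR2 (8.08 RPKM in RNC-mRNA and 8.73 RPKM in mRNA, 0.62). The nearest to FGFR3 were MERTK (17.1 RPKM in RNC-mRNA and 17.0 RPKM in mRNA, 0.62) and EPHB2 (29.5 RPKM in RNC-mRNA and 20.5 RPKM in mRNA, 0.77). KLB lay farther from its nearest, with PDGFRB at a distance of 0.88 and EPHA10 at 0.89.

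**Figure D4:**
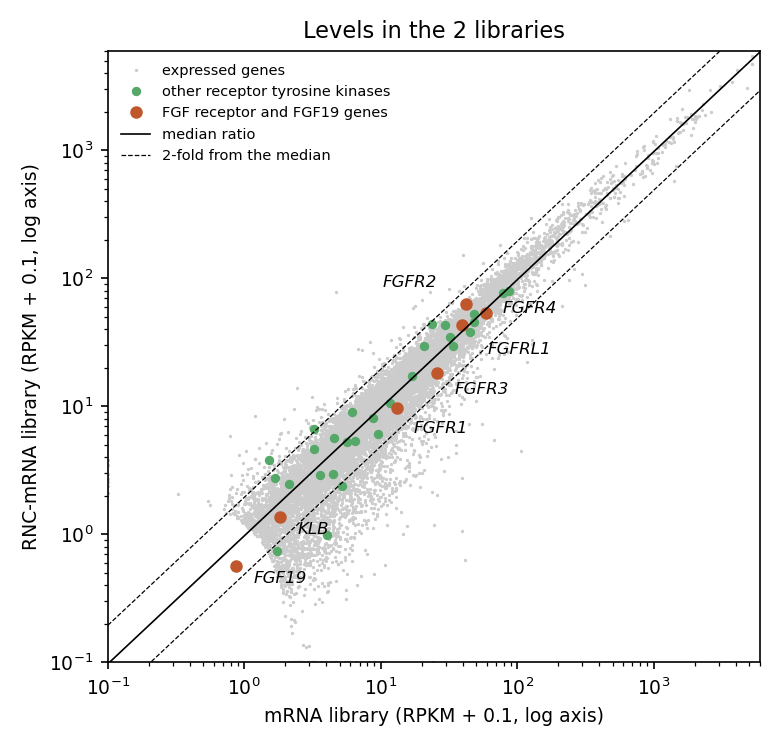
RNC-mRNA level against mRNA level, each as RPKM + 0.1 on a log axis, for all 13402 expressed genes (grey), 28 other receptor tyrosine kinases (green) and the FGF receptor and FGF19 genes (orange). The solid line is the median ratio and the dashed lines are 2-fold from it, and all 7 named genes lie between the dashed lines.

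FGF ligands were low at both levels. Of the other 17 secreted FGFs, 14 had a mean under 1 RPKM and 5 of those were listed at 0 in both libraries. The remaining 3 had a mean of at least 1 RPKM only through the mRNA library, so their low ratios are partly set by that filter and nothing is read from their number. The median ratio of the ligands was -2.14 over these 3 and -0.63 with no filter. FGF5, an inhibitor of hair growth, had 0.586 RPKM in the RNC-mRNA library and 3.003 RPKM in the mRNA library, a relative ratio of -2.14 (interval -2.89 to -1.78). FGF8, a patterning signal of the embryo, had 0.523 RPKM in RNC-mRNA and 1.502 RPKM in mRNA (-1.33, interval -3.14 to -0.04). FGF21, a metabolic hormone that like FGF19 needs KLB, had 0 RPKM in the RNC-mRNA library and 2.11 RPKM in the mRNA library, on at least 6 reads. The intracellular FGF homologous factors FGF13 (2.56 RPKM in RNC-mRNA and 1.86 RPKM in mRNA, ratio 0.48) and FGF11 (0.864 RPKM in RNC-mRNA and 2.29 RPKM in mRNA, ratio -1.27) were also low. FGF11 too passed the filter only through the mRNA library. FGF12 had 0.0585 RPKM in the RNC-mRNA library and 0.0504 RPKM in the mRNA library, and FGF14 was listed at 0 in both.

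Other co-receptors and carriers of FGFs were low too. KL, the co-receptor of FGF23, had 0.0541 RPKM in the RNC-mRNA library and 0.0414 RPKM in the mRNA library. LCTL, a Klotho relative, had 0.509 RPKM in RNC-mRNA and 0.439 RPKM in mRNA. The FGF-binding carrier protein FGFBP1 had 0.532 RPKM in RNC-mRNA and 1.91 RPKM in mRNA, a ratio of -1.63 (interval -3.17 to -0.61). FGFBP1 had a mean of at least 1 RPKM only through the mRNA library, so its low ratio is partly set by that filter. FGFBP3 had 1.76 RPKM in RNC-mRNA and 1.46 RPKM in mRNA, with an interval that included the median (-0.62 to 1.27), and FGFBP2 was listed at 0 in both.

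The bile acid circuit around FGF19 was present in part. Of 12 genes found, 7 had a mean of at least 1 RPKM, 5 of them above the median ratio and 2 below. Their median ratio was 0.14, and -0.30 with no filter on low values. HNF4A, a hepatic and intestinal transcription factor, had 95.2 RPKM in the RNC-mRNA library and 77.4 RPKM in the mRNA library (ratio 0.34), and RXRA, the partner of FXR on DNA, had 35.2 RPKM in RNC-mRNA and 32.8 RPKM in mRNA (0.14). NR0B2, the repressor SHP that FXR induces, was highest in ratio at 0.83 but on few reads (1.35 RPKM in RNC-mRNA and 0.735 RPKM in mRNA, interval -0.30 to 2.24). SLC51A, a subunit of the basolateral bile acid exporter, was lowest at -2.25 (0.372 RPKM in RNC-mRNA and 2.21 RPKM in mRNA, interval -4.08 to -1.25). NR0B2 passed the filter only through the RNC-mRNA library and SLC51A only through the mRNA library. These extremes are therefore partly set by the filter. NR1H4 (FXR itself), outside the rule for named genes and given because FGF19 depends on it, had 0.0736 RPKM in the RNC-mRNA library and 0.254 RPKM in the mRNA library. These levels rested on as few as 1 read in RNC-mRNA and 3 in mRNA. The interval of the NR1H4 ratio (-7.46 to 1.89) included the median, so no difference between the libraries is read from it.

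Of the signalling genes downstream of the receptors, all 22 listed were expressed, 19 lay above the median ratio and 3 below, and 0 were 2-fold or more from it. Their median ratio was 0.29, against 0 for all expressed genes. The counting interval lay wholly above the median for 16 of the 22, a call that 29.6% of all expressed genes and 43.8% of those with 500 to 6000 reads met. NRAS, a RAS GTPase, was highest at 0.68 (13.6 RPKM in the RNC-mRNA library and 8.66 RPKM in the mRNA library). PLCG1, a phospholipase that docks directly on FGF receptors, was lowest at -0.66 (33.0 RPKM in RNC-mRNA and 53.6 RPKM in mRNA). The MAP kinase kinase MAP2K2 (96.9 RPKM in RNC-mRNA and 89.2 RPKM in mRNA, 0.16) and the MAP kinase MAPK3 (79.4 RPKM in RNC-mRNA and 81.0 RPKM in mRNA, 0.01) were the most abundant.

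Feedback and target genes of FGF signalling went both ways. Of 13, 9 were expressed, 4 above and 5 below the median, with a median ratio of -0.03 that was 0.12 with no filter on low values. DUSP6, the phosphatase that switches off ERK, had 5.98 RPKM in the RNC-mRNA library and 1.73 RPKM in the mRNA library, a ratio of 1.77 (interval 1.36 to 2.32). IL17RD, the membrane inhibitor called SEF, was lowest at -1.05 (0.673 RPKM in RNC-mRNA and 1.55 RPKM in mRNA, interval -2.25 to -0.15). IL17RD passed the filter only through the mRNA library, so its place is partly set by the filter. By the mean of both libraries, the ETS factor ETV4 (22.2 RPKM in RNC-mRNA and 30.5 RPKM in mRNA, -0.42) and the RAS pathway inhibitor SPRED2 (14.8 RPKM in RNC-mRNA and 9.32 RPKM in mRNA, 0.70) were the most abundant.

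Heparan sulfate proteoglycans, whose sugar chains hold FGF and receptor together, had 11 of 13 core proteins expressed, 3 above and 8 below the median ratio (median -0.30). For 9 of the 11 the counting interval did not include the median, above it for 2 and below it for 7, a call in either direction that 59.5% of all expressed genes and 69.9% of those with 500 to 6000 reads met. An interval wholly below the median was found for 4014 of the 13395 expressed genes with recovered reads. GPC3, a glypican of fetal liver, had 138 RPKM in the RNC-mRNA library and 186 RPKM in the mRNA library (-0.39), and the syndecan SDC4 had 127 RPKM in RNC-mRNA and 125 RPKM in mRNA (0.06). SDC2 was highest (7.69 RPKM in RNC-mRNA and 6.52 RPKM in mRNA, 0.27) and GPC2 lowest (1.39 RPKM in RNC-mRNA and 3.07 RPKM in mRNA, -1.05). Enzymes that build or edit the chains had 17 of 23 members expressed, 10 above and 7 below (median 0.12). Of these, the xylosyltransferase XYLT2, which starts a chain, had 56.1 RPKM in RNC-mRNA and 61.5 RPKM in mRNA (-0.10), and the sulfotransferase NDST1 had 35.8 RPKM in RNC-mRNA and 26.1 RPKM in mRNA (0.50). HS3ST1, another sulfotransferase, was highest at 1.22 (6.93 RPKM in RNC-mRNA and 3.01 RPKM in mRNA), and the epimerase GLCE was lowest at -0.56 (6.58 RPKM in RNC-mRNA and 10.0 RPKM in mRNA).

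**Figure D5:**
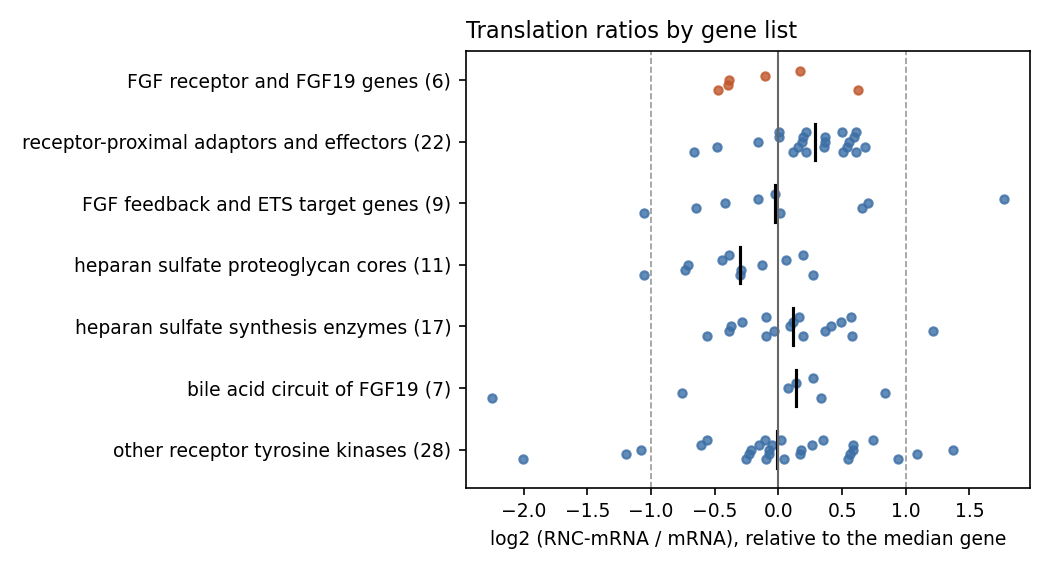
Translation ratios on the log2 scale relative to the median expressed gene for the FGF receptor and FGF19 genes with a mean of at least 1 RPKM (orange, 6 points) and for 6 gene lists (blue, number of expressed members in brackets). Black bars are list medians and dashed lines mark 2-fold; of the 6 lists drawn, the signalling genes have the highest median, 0.29, and the proteoglycan cores the lowest, -0.30 (lists with 5 or fewer expressed members are not drawn).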

How the data were processed

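Poly(A) RNA from ribosome-nascent chain complexes and from total RNA of Caco-2 cells was sequenced as 1 library each. The deposited values are RPKM, computed by the authors, per the file headers, with 1 RefSeq record for each gene symbol. The genome build was hg19, per the submitters' processing notes, so no coordinates of the GRCh38 annotation are given. Aligner and counter: not given in the sources used here.

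Library totals were recovered from the RPKM steps, as the total that gave whole reads for the largest number of genes with a matched transcript, within the rounding of 7 digits (1418 of 11211 genes for the RNC-mRNA library against 1007 at the next best total, and 1598 of 12247 against 1076 for the mRNA library). The transcript lengths came from GENCODE release 29. Each gene's reads are the fewest that explain both values at a whole length, with a relative error of 2e-07 allowed beyond rounding. The true reads of a gene could be a multiple of these, so the counts are lower bounds. For such genes the intervals are too wide, and the shares of genes whose interval excludes the median rest on the same counts. The recovered reads sum to 86.9% of the total of the RNC-mRNA library and 86.5% of that of the mRNA library. From these recovered reads, intervals of ratios were computed as Clopper-Pearson intervals, those of levels as Poisson intervals and those of gene pairs as conditional intervals, each at 95%. PCR copies are not independent molecules, so the intervals cover counting error only. Intervals of ratios were computed from the reads without the pseudocount that the ratios beside them hold. For genes of few reads the ratio and its interval therefore do not match exactly. The ratio of FGF19 was -0.60, and -0.69 with a pseudocount of 0.01 RPKM. The ratio is log2 of RNC-mRNA over mRNA with a pseudocount of 0.1 RPKM, minus the median (-0.04) over genes with a mean of at least 1 RPKM, and it understates differences of low genes. No test was possible with 1 library per level, and 2-fold from the median is a rule of size. The steps were tested on simulated data. The members and gene lists were chosen with earlier results of these data known. Named genes are all members, the 2 most abundant and the highest and lowest in ratio of each list, every gene of lists of at most 5, and the 2 nearest receptor tyrosine kinases of each member. A planned comparison of protein sequences was not made. Of the bile acid genes, MALRD1 was not matched and is not analysed here. Python 3.11.15, numpy 2.4.6, scipy 1.17.1 and pandas 2.3.3 were used.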

Additional observations from a re-analysis of the deposited data

How the results depend on the processing

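Each ratio was recomputed under 9 alternatives, of which NM records alone was chosen after seeing the data. All 7 genes kept their side of the median under each, with FGFR1 between -0.47 and -0.29, FGFR2 between 0.54 and 0.73, FGFR3 between -0.55 and -0.37, FGFR4 between -0.19 and -0.0045, FGFRL1 between 0.09 and 0.27, KLB between -0.48 and -0.24 and FGF19 between -0.69 and -0.24. Apart from the pseudocounts, the alternatives move only the centre, by at most 0.10, and none of the 7 lay closer to the median than that. Keeping a side is therefore no support for these ratios, and the counting intervals of KLB and FGF19 include the median. FGFR2 left its counting interval with a mean of at least 5 RPKM (0.54) and with no filter (0.73), where FGFR4 was at -0.0045. The median of all genes was 0.10 lower with no filter. Genes at least 2-fold above and below the median numbered 184 and 1576, against 102 and 1046 with a pseudocount of 1 RPKM, 62 and 544 with a mean of at least 5 RPKM, and 599 and 3040 with no filter. The median ratio of the FGF ligands was -2.14, against -1.30 with a pseudocount of 1 RPKM and -0.63 with no filter. The medians of the FGF homologous factors (-0.40, and 0.21 with no filter), the Klotho co-receptors and carriers (-0.67, and 0.29), the feedback genes (-0.03, and 0.12), the bile acid genes (0.14, and -0.30) and the other receptor tyrosine kinases (-0.01, and 0.07) changed sign with no filter, which adds weakly expressed genes. That of the other 11q13 genes (0.08) was -0.0010 with a mean of at least 5 RPKM. With reads per kilobase of the GENCODE transcripts, the shares of FGFR1, FGFR2, FGFR3 and FGFR4 were 7.64%, 53.3%, 10.1% and 29.01% in the RNC-mRNA library and 11.2%, 38.4%, 15.6% and 34.8% in the mRNA library. This follows from their lengths, which are shorter than those behind the RPKM for FGFR1 and FGFR2. Depth limits FGF19 (11 RNC-mRNA and 16 mRNA reads) most. No paired analysis was possible because each level has 1 library.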

Other observations

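FGF19 lies on chromosome 11 near the cell-cycle gene CCND1, and the neighbours at this locus were expressed at very different levels. CTTN, which encodes the actin-binding protein cortactin, had 93.6 RPKM in the RNC-mRNA library and 122 RPKM in the mRNA library. CCND1, which encodes cyclin D1, had 41.3 RPKM in RNC-mRNA and 34.9 RPKM in mRNA, and the death-domain adaptor FADD had 37.9 RPKM in RNC-mRNA and 29.7 RPKM in mRNA. Of the 8 genes listed around FGF19, 5 had a mean of at least 1 RPKM, with ratios from -0.34 (CTTN) to 0.39 (FADD). The 3 others include the FGF genes of the locus: FGF3 had 0.117 RPKM in RNC-mRNA and 0.268 RPKM in mRNA and FGF4 was listed at 0 in both libraries.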
